A study of Mus musculus with 6 samples.

Results

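The genes described here encode the brakes of TGF-β signalling, that is, proteins that limit the pathway and several of which the pathway itself is known to induce. Smad6, Smad7, Ski, Skil, Pmepa1, Tgif1, Tgif2, Smurf1, Smurf2 and Bambi were chosen by name. Their probes were taken through the RefSeq accession that each probe carries, which gave 17 of the 56599 probes kept and 10 of the 22910 genes on the array. Of these genes, 5 had 1 probe, 3 had 2 probes and 2 had 3 probes. All 17 probes were well above background on all 6 arrays, so each of the 10 genes was among the 14345 genes tested.

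The cultures were 2D-MAOs, mouse airway epithelial organoids plated flat in 6-well plates, from airway epithelial cells of C57BL/6 mouse lung. The experiment compared 3 TGF-β1-treated cultures with 3 cultures that were not treated, called control here. TGF-β1 was added on day 3 and RNA was taken from cells of day 7, in medium that the labels describe, for both groups alike, as lacking noggin, which blocks BMP ligands, and A83-01, which blocks the kinase of the TGF-β type I receptor. RNA of each culture was labelled with Cy3 and hybridised to 1 array. The concentration of TGF-β1 used for the arrays is not given in the sources used here.

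TGF-β binds a pair of receptor kinases that phosphorylate Smad2 and Smad3, which then enter the nucleus with Smad4 and act on target genes. BMP ligands use related receptors and Smad1, Smad5 and Smad9. The signal is limited at every step: membrane proteins compete with or mimic the receptors, inhibitory Smads block the activated receptor, ubiquitin ligases send receptors and Smads to degradation, and nuclear co-repressors silence the Smad complex on DNA. In airway epithelium the pathway is known for restraining growth and for driving matrix production and the loss of epithelial form.

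A spot's signal is its background-subtracted brightness, given here as log2 after quantile normalisation. Levels were compared between arrays for the same probe and never between probes. The log2 fold change is TGF-β1-treated minus control, and a gene was called at a Benjamini-Hochberg adjusted p under 0.05 over all genes tested. The share of probes well above background was 54.96% to 59.03% per array and no spot was saturated. Precision was limited by having 3 arrays per group. One array stood apart: TGF-β1 replicate 3 lay 54.4 to 60.9 from the controls and 61.1 to 62.3 from the other TGF-β1 arrays in Euclidean distance over all genes tested, while TGF-β1 replicates 1 and 2 lay 32.3 from each other and 69.8 to 81.2 from the controls. For each of the 10 genes the change without this array, and without every other, is in the plot of arrays left out. Slide row 2 held replicate 3 of both groups, and slide row 1 held all other arrays.

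Across the set, Pmepa1 and Tgif1 rose in TGF-β1-treated 2D-MAOs, and limma called none of the 10 lower, adjusted or not. When each gene's own spread replaced the estimate that limma shares across genes, none of the 10 was called after adjustment. With limma, 2 of 10 genes were called higher (20%), against 1.63% of all genes tested called higher and 0.404% called lower. In 6 of the 10 genes (60%) all 3 TGF-β1 arrays lay above all 3 control arrays, which held for 12.9% of all genes. The reverse order was found in none of the 10 and in 13.5% of all genes. The log2 fold change was above 0 in 9 of 10, against 45.8% of all genes, and its median was 0.52, against -0.03 over all genes. Of genes with a like role, Smad7, Tgif1, Smurf1 and Pmepa1 had groups apart while Smad6, Tgif2, Smurf2 and Bambi did not, and Ski and Skil were both higher on every TGF-β1 array. In a whole culture, more cells of a type and more RNA per cell cannot be told apart.

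**Figure D1:**
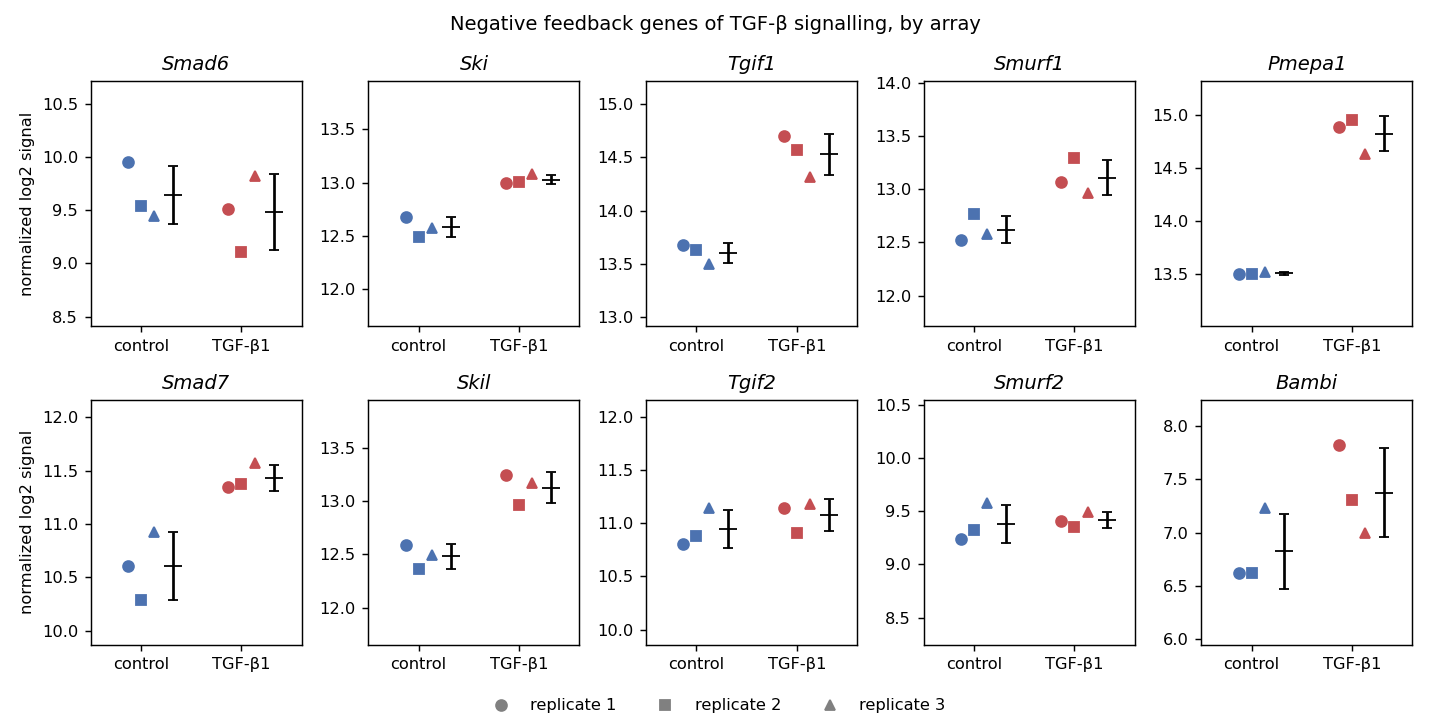
Normalised log2 signal of the brightest probe of each of the 10 genes on the control (blue) and TGF-β1 (red) arrays, with replicates 1, 2 and 3 as circles, squares and triangles and the mean ± SD (n = 3) in black; every panel spans the same log2 range. The groups are apart for Smad7, Ski, Skil, Tgif1, Smurf1 and Pmepa1 and overlap for Smad6, Tgif2, Smurf2 and Bambi.

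Sequence around start sites came from a table of RefSeq promoter windows on the assembly GRCm38.p6, each of 250 bases before and 50 bases after a transcript's start. Windows of Smad6, Ski, Tgif1, Tgif2, Smurf1 and Smurf2 were used, 10 in all and 5 of them for Tgif1. Promoters of the other 4 genes were not analysed here. Smad3 and Smad4 are known to bind the short element CAGAC, AP-1 the element TGACTCA, and Smads a GC-rich element GGCGCC. Each was searched on both strands. CAGAC or its complement GTCTG was present in 5 of the 10 windows (50%), close to its share of 49.6% over all 32851 windows of the table. TGACTCA was in none of the 10 and in 5.20% of all windows. GGCGCC was in 2 windows, those of Ski and Smurf2, and in 11.9% of all.

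The windows shown are those that hold CAGAC on either strand or the palindrome named next, and that of Tgif2 beside Tgif1. The window of Ski, in which GGCGCC was the only element found, is not shown. Smad6 is shown because its start carries the palindrome GTCTAGAC, 2 abutting Smad elements, beginning 4 bases before the start. This longer motif was searched after the windows had been read and is in 0.213% of all windows (70 of 32851). It overlaps neither of the pentamers searched. The stretch covers 30 bases on each side of the start on the minus strand, with the palindrome in capitals.
Smad6 chr9:64022030-64022089: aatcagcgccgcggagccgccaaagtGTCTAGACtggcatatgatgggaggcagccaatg
Tgif1, which rose, has CAGAC or GTCTG in 3 of its 5 windows, at 17, at 191 and 59, and at 201 bases before the respective starts. The 250 bases before each of these starts follow, minus strand, with the element in capitals.
Tgif1 chr17:70849791-70850040: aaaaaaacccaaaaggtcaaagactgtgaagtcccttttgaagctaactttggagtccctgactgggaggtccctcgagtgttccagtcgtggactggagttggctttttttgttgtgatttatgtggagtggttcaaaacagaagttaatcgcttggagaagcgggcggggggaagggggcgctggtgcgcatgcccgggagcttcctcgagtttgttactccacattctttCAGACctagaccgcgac
Tgif1 chr17:70851735-70851984: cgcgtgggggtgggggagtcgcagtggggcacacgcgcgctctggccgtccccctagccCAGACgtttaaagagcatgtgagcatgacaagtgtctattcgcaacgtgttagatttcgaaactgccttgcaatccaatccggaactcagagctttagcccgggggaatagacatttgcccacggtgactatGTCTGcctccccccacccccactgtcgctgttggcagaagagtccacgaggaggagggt
Tgif1 chr17:70853533-70853782: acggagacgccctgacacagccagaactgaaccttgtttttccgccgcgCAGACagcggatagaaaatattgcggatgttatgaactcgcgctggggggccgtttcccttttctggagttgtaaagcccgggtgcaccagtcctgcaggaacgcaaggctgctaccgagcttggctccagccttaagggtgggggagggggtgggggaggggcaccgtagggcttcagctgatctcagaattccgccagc
Tgif2, the relative of Tgif1, has none of the elements searched. The 250 bases before its start are on the plus strand.
Tgif2 chr2:156839757-156840006: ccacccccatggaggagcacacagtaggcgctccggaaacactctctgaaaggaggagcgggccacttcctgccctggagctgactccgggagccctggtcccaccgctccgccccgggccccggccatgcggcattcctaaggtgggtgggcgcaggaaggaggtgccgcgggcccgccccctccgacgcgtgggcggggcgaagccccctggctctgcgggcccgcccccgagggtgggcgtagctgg
Smurf1 and Smurf2 each have the element at 2 places: Smurf1 at 192 and 145 bases before its start, and Smurf2 at 203 bases before and 28 bases after. The 250 bases before each start, minus strand, again carry the element in capitals.
Smurf1 chr5:144965831-144966080: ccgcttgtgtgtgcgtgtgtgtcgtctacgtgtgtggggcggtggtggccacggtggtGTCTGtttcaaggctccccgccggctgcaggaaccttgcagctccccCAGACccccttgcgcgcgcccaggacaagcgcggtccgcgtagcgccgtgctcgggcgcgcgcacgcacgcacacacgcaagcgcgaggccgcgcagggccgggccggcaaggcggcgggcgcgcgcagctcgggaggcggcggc
Smurf2 chr11:106920716-106920965: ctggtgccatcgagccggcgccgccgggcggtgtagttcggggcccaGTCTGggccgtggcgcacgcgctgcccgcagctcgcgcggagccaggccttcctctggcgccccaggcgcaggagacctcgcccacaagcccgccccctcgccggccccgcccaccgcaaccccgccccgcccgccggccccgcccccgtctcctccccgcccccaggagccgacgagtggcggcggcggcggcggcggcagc
The arrays of the groups were apart in Smurf1 and overlapped in Smurf2, as given below. A match is a run of letters in this window, not a site shown to be bound.

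Pmepa1 encodes a membrane protein that captures Smad2 and Smad3 and keeps them from the receptor. Its log2 signal was 13.50, 13.50 and 13.52 on control replicates 1, 2 and 3, and 14.88, 14.95 and 14.63 on TGF-β1 replicates 1, 2 and 3. The controls were nearly alike, and the lowest TGF-β1 array stood 1.11 above the highest control. The log2 fold change was 1.31 (SE 0.12, 95% interval 1.03 to 1.59, limma adjusted p = 0.00616), 2.48-fold, and it was the only one of the 10 to pass 2-fold with the adjusted p. Of all genes tested, 1.80% had a larger log2 fold change. The spot was 327 to 839 times as bright as its local background. Dropping any single array gave a change of 1.25 to 1.40, and the adjusted p stayed between 0.00262 and 0.0420. The change was 1.41 between the 2 arrays per group of slide row 1, and 1.11 between the single pair of slide row 2.

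Bambi encodes a pseudoreceptor, a membrane protein that resembles a type I receptor but has no kinase. Its log2 signal was 6.62, 6.62 and 7.23 in controls and 7.82, 7.31 and 7.00 after TGF-β1. Control replicate 3 lay above TGF-β1 replicate 3, so the groups overlapped. The log2 fold change of 0.55 (SE 0.26, 95% interval -0.06 to 1.17) did not pass, with a limma adjusted p of 0.261. It depended on single arrays, with 0.33 without TGF-β1 replicate 1, 0.74 without TGF-β1 replicate 3 and 0.75 without control replicate 3. The values of replicate 3 ran against the rest, with a difference of 0.94 in slide row 1 and -0.23 in slide row 2. With array weights Bambi passed (log2 fold change 0.88, adjusted p = 0.0199), in a setting that called 7 of the 10 genes. Its spot was also the closest to its local background among the brightest probes of the 10 genes, at 3.12 to 7.84 times its local background.

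Smad7 is the inhibitory Smad that binds activated TGF-β and BMP type I receptors and recruits the Smurf ligases to them. Its brighter probe read 10.61, 10.29 and 10.92 in controls and 11.35, 11.37 and 11.57 after TGF-β1. All TGF-β1 arrays lay above all controls, with 0.42 between the nearest arrays. It differed by 0.82 on the log2 scale (SE 0.18, 95% interval 0.41 to 1.24), 1.77-fold, and the limma adjusted p of 0.0747 missed the threshold. It passed without control replicate 3 (log2 fold change 0.98, adjusted p = 0.0445) and missed it without any other single array. With the slide row as a block it passed as well (adjusted p = 0.0416), which made 3 of the 10 genes called. Its second, dimmer probe gave 0.68 (limma adjusted p over probes = 0.0994), also with no overlap.

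Smad6, the relative known for acting mainly on the BMP branch, did not follow. Its log2 signal was 9.95, 9.54 and 9.44 in controls and 9.51, 9.11 and 9.82 after TGF-β1. The highest value was a control, TGF-β1 replicate 3 came next, and the groups overlapped. Its log2 fold change was -0.16 (SE 0.22, 95% interval -0.68 to 0.36, limma adjusted p = 0.672). It was -0.43 in slide row 1 and 0.38 in slide row 2. Without TGF-β1 replicate 2 its sign turned, to 0.02.

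Ski and Skil, also called SnoN, encode co-repressors that bind Smad complexes on DNA and recruit histone deacetylases. Ski read 12.67, 12.49 and 12.58 in controls and 13.00, 13.01 and 13.08 after TGF-β1. The 3 TGF-β1 values were close together and all above the controls, yet the change was small. Its log2 fold change was 0.45 (SE 0.10, 95% interval 0.20 to 0.69, limma adjusted p = 0.0882). Scaling to the 75th percentile in place of quantile normalisation lowered it to 0.28.

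Skil read 12.59, 12.36 and 12.49 in controls and 13.25, 12.96 and 13.17 after TGF-β1 at its brightest probe, designed on NM_011386. These groups were apart as well, with a log2 fold change of 0.65 (SE 0.12, 95% interval 0.35 to 0.94, limma adjusted p = 0.0571). Its other 2 probes carry the accessions NM_001271772 and NM_001039090, and their groups overlapped. Their log2 fold changes were 0.30 (limma adjusted p over probes = 0.422) and 0.33 (0.246), so the mean of the 3 probes gave 0.42 where the brightest gave 0.65. Skil passed without TGF-β1 replicate 3 (adjusted p = 0.0365) and not without any other single array. Over genes well above background on all 6 arrays it passed as well (limma adjusted p = 0.0496).

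Tgif1 and Tgif2 encode homeodomain proteins that bring repressors to Smad complexes. Tgif1 read 13.68, 13.63 and 13.50 in controls and 14.70, 14.57 and 14.32 after TGF-β1. The nearest arrays of the groups were 0.64 apart. The log2 fold change was 0.92 (SE 0.13, 95% interval 0.61 to 1.24, limma adjusted p = 0.0226), 1.90-fold and thus below 2-fold. With 1 array left out its call held only without TGF-β1 replicate 3, where the change was 1.03 and the adjusted p was 0.00739. Without control replicates 1, 2 and 3 the adjusted p was 0.0901, 0.0968 and 0.0540, and without TGF-β1 replicates 1 and 2 it was 0.105 and 0.110, while the change stayed at 0.84 to 0.96. The brighter probe was designed on NM_001164075. The other, on NM_009372, gave 0.61 (SE 0.19, limma adjusted p over probes = 0.119), with all TGF-β1 arrays above all controls.

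Tgif2 read 10.81, 10.88 and 11.15 in controls and 11.14, 10.91 and 11.18 after TGF-β1. Control replicate 3 lay among the TGF-β1 values. Its log2 fold change was 0.13 (SE 0.14, 95% interval -0.20 to 0.46, limma adjusted p = 0.589). Its other 2 probes gave -0.10 and -0.14, and the dimmest of them was only 1.63 to 1.94 times its local background.

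**Figure D2:**
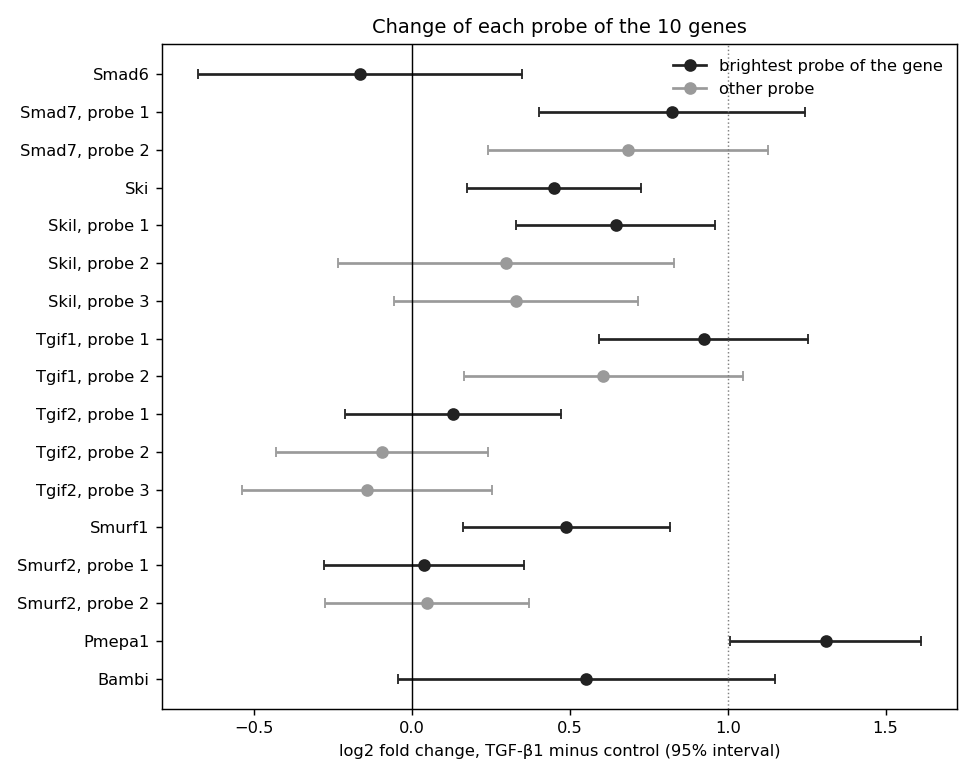
Log2 fold change (TGF-β1 minus control, x axis) of each of the 17 probes, with its 95% interval from a limma model fitted over probes; the dotted line marks 2-fold. Black points are the brightest probe of each gene and grey points its other probes: both probes of Smad7 and of Tgif1 lie above 0, while the grey probes of Skil and all probes of Tgif2 and Smurf2 have intervals that include 0.

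Smurf1 and Smurf2 encode ubiquitin ligases that mark Smads and, with Smad7, the receptors for degradation. Smurf1 read 12.53, 12.76 and 12.57 in controls and 13.07, 13.29 and 12.97 after TGF-β1. All TGF-β1 arrays were above all controls, with 0.20 between the nearest. On average Smurf1 differed by 0.49 on the log2 scale (SE 0.13, 95% interval 0.18 to 0.80, limma adjusted p = 0.117), and of the fits with 1 array left out it passed only without TGF-β1 replicate 3 (0.56, adjusted p = 0.0424). It also passed with array weights (0.54, adjusted p = 0.0146), a setting that called 7 of the 10 genes, and 2408 genes higher and 2575 lower over all. With scaling to the 75th percentile it was 0.32 and the groups overlapped, so that 5 in place of 6 of the 10 genes had groups apart.

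Smurf2 read 9.24, 9.33 and 9.57 in controls and 9.41, 9.35 and 9.49 after TGF-β1. All 3 TGF-β1 values lay inside the range of the controls. Between the group means lay 0.04 on the log2 scale (SE 0.12, 95% interval -0.26 to 0.33, limma adjusted p = 0.874), and its second probe gave 0.05.

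Setting each gene against its partner on the same array removes whatever moved both probes together. The 5 pairs were formed after the values had been seen, with the gene of the larger change on top, so a positive difference was fixed by that choice and is described without a test. Relative to the control mean, the log2 ratio of Smad7 to Smad6 was -0.31, -0.21 and 0.52 in controls and 0.87, 1.30 and 0.79 after TGF-β1, a difference of 0.99 between the group means. For Tgif1 to Tgif2 the values were 0.21, 0.09 and -0.30 against 0.89, 1.01 and 0.48, a difference of 0.79. The groups did not overlap in these pairs. Smurf1 to Smurf2 differed by 0.45, Pmepa1 to Bambi by 0.76 and Skil to Ski by 0.20, again with no overlap. The nearest arrays were close in 2 pairs: 0.02 in a control and 0.05 after TGF-β1 for Skil to Ski, and 0.20 and 0.23 for Smurf1 to Smurf2.

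**Figure D3:**
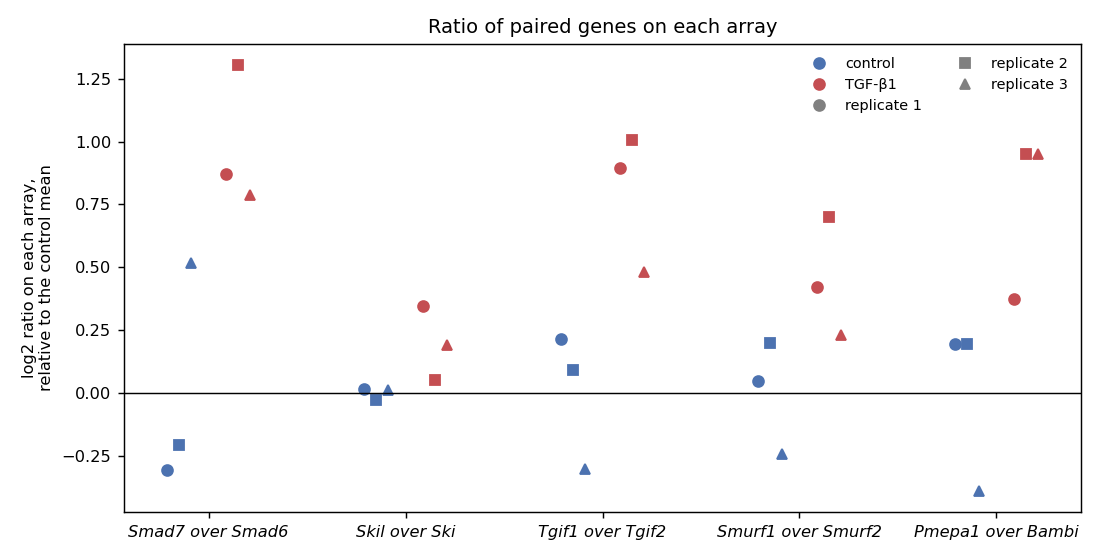
Log2 ratio of the signals of paired genes on each array, set to 0 at the control mean (y axis), for 3 control arrays (blue) and 3 TGF-β1 arrays (red), with replicates as circles, squares and triangles. The gene with the larger change is on top in each pair; the groups are 0.99 apart on average for Smad7 over Smad6 and 0.20 for Skil over Ski, and their nearest arrays almost touch for Skil over Ski and for Smurf1 over Smurf2.

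The dependence on single arrays differed between the genes. Pmepa1 kept its call without any single array. Tgif1 kept it without TGF-β1 replicate 3 only, and Smad7, Skil and Smurf1 each gained a call without 1 array. Smad6 and Smurf2 crossed 0 as arrays were left out.

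**Figure D4:**
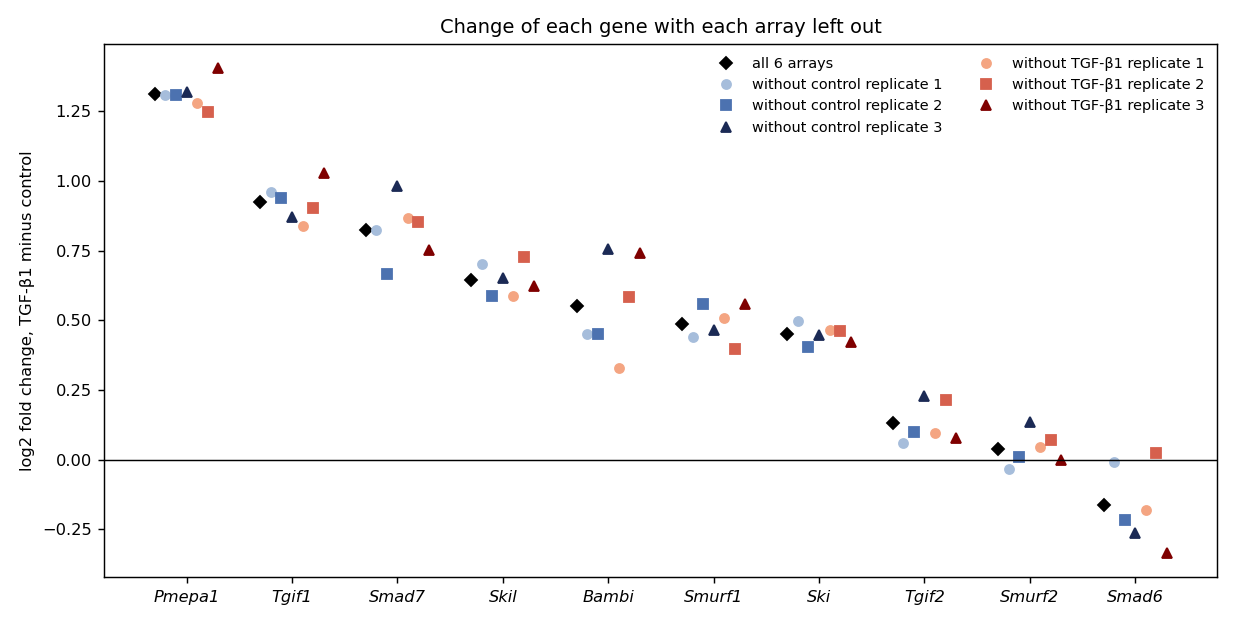
Log2 fold change (TGF-β1 minus control, y axis) of each gene over all 6 arrays (black diamonds) and over the 5 that remain when any single array is dropped (coloured symbols). Pmepa1 spans 1.25 to 1.40 and Bambi 0.33 to 0.75, and Smad6 (-0.33 to 0.02) and Smurf2 (-0.03 to 0.14) reach across 0.

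The genes around these inhibitors were read from lists of pathway genes by role. Of 16 receptors and signal-carrying Smads, 15 were tested, and Smad9 stayed near background throughout. None was called by limma in either direction (4 had an unadjusted p under 0.05), 10 had a change above 0, and the median was 0.20, against -0.03 over all genes. With scaling to the 75th percentile these medians were 0.04 and -0.09. The largest values were 0.69 for Bmpr2, the BMP type II receptor (limma adjusted p = 0.154), 0.62 for Acvr1, a type I receptor of BMPs and activins (0.117), and 0.58 for Tgfbr1, the TGF-β type I receptor (0.0605). The lowest were -0.27 for Acvr2a, an activin type II receptor (0.264), -0.26 for Acvr1b, the activin type I receptor (0.333), and -0.21 for Smad2 (0.295).

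Of the 14 other negative regulators 4 had a change above 0 (28.6%), against 45.8% of all genes, and their median was -0.07. None was called by limma (2 had an unadjusted p under 0.05). The largest change was that of Vasn, which encodes vasorin, a membrane protein that traps TGF-β, with a log2 fold change of 1.02 and a limma adjusted p of 0.0538. Lemd3, an inner nuclear membrane protein that binds Smads, had 0.24 (0.365), and Fkbp1a, which holds the type I receptor inactive, had 0.05 (0.794). At the lower end were Strap, a receptor-binding scaffold, with -0.32 (0.258), the ubiquitin ligase Wwp1 with -0.28 (0.223) and the antiproliferative Tob1 with -0.25 (0.3002). Among 7 enzymes and cofactors that act on the proteins of the 10 genes or on the Smad7 complex, limma called none, adjusted or not, and the median was -0.08. Scaling to the 75th percentile gave medians of -0.19 for the regulators and -0.23 for the enzymes. Usp11, a deubiquitinase, had 0.49 (limma adjusted p = 0.256) and Rnf111, the ligase that degrades Ski, Skil and Smad7, had 0.14 (0.549). Uchl5 had -0.27 (0.311), Usp4 -0.20 (0.297) and Usp15 -0.12 (0.644), all 3 of them deubiquitinases that act on receptors or Smads.

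Among targets of the pathway the changes were mostly above 0. Of 16 TGF-β target genes 15 were tested, with Snai1 near background throughout. All 15 had a change above 0, 5 rose, none fell, and the median was 1.23. This median depended on the processing, with 0.62 under normexp background, 0.68 over genes well above background on all 6 arrays, 0.94 when TGF-β1 replicate 2 was left out and 1.67 when replicate 3 was. Tgfbi, a matrix protein, rose by 4.58 (limma adjusted p = 0.00247), Fn1, fibronectin, by 2.22 (0.0279) and Ccn2, a matricellular protein, by 2.10 (0.0111). Ltbp2, a latent TGF-β binding protein, was called higher (limma adjusted p = 0.00316), but only 1 of its 3 control arrays stood well above background, so its change is given without a size. Its log2 signal was 3.25, 4.41 and 3.76 in controls and 7.51, 8.08 and 7.92 after TGF-β1. Col1a1, a collagen chain, is counted in the 15 and in the 5. It was tested only through the 3 TGF-β1 arrays, so its direction was set by the filter on dim probes. All 3 of its control arrays failed to stand well above background, and it was at least 2.59-fold higher after TGF-β1 (0.00910). This bound sets the TGF-β1 mean against, on each control array, the higher of the probe's own signal and the lowest signal of any probe well above background.

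BMP targets did not move one way. Of 6 genes 5 were tested, with Atoh8 near background throughout, and limma called none (3 had an unadjusted p under 0.05). With each gene's own spread in place of limma's, no gene of these 5 lists was called after adjustment. Hey1, a repressor downstream of Notch and BMP, had 0.79 (limma adjusted p = 0.0935) and Id3 had 0.10 (0.898). Id4 had -0.90 (0.152), Id2 -0.73 (0.0997) and Id1 -0.32 (0.548), all encoding inhibitors of helix-loop-helix factors, and the median of the list was -0.32. This median ranged from -0.56 without control replicate 2 to -0.02 without TGF-β1 replicate 2.

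**Figure D5:**
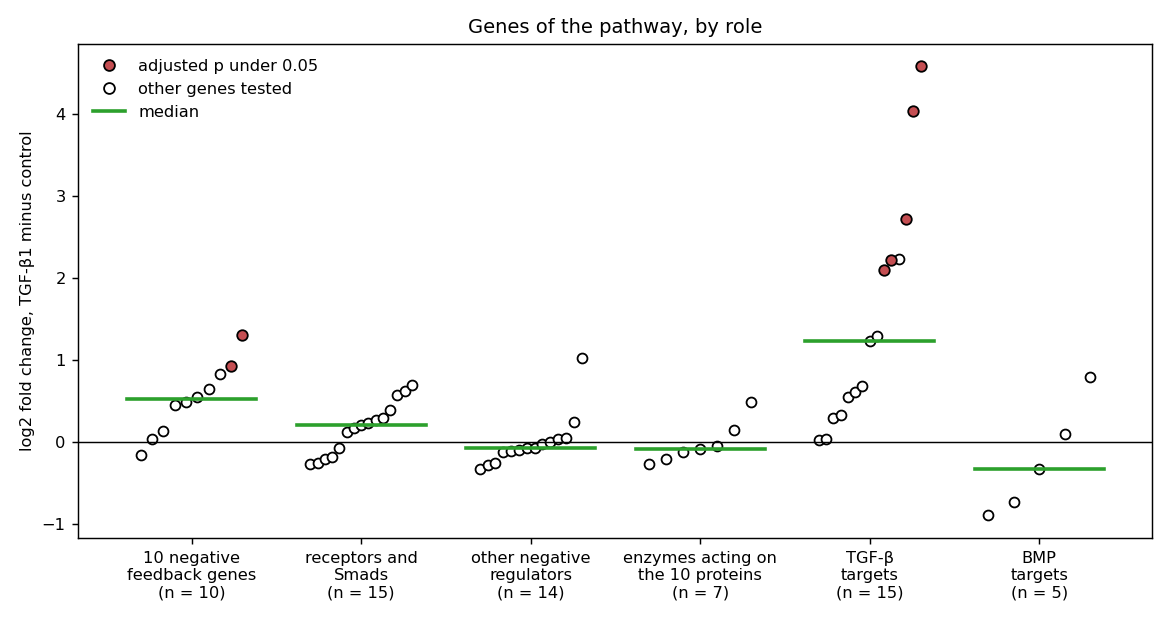
Log2 fold change (TGF-β1 minus control, y axis) of each gene tested in the 10 negative feedback genes and in 5 lists of pathway genes, filled where the limma adjusted p was under 0.05, with the median of each list in green. The medians are 0.52, 0.20, -0.07, -0.08, 1.23 and -0.32 from left to right; Col1a1 and Ltbp2, among the TGF-β targets, are drawn at fitted values although not well above background on 3 and 2 control arrays.

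The genes with the most similar profiles were sought among 13507 genes well above background on all 6 arrays, by the root mean square difference of the log2 signals, each centred on its own mean over the 6 arrays. Nearest to Pmepa1 were Scarf2, a scavenger receptor family gene, at 0.079 (log2 fold change 1.22, limma adjusted p = 0.0110), Myo7a, an unconventional myosin, at 0.096 (1.41, 0.00893), and the long non-coding RNA Morrbid at 0.118 (1.40, 0.0150). Nearest to Tgif1 were Fam210b at 0.049 (0.88, 0.0216), Eva1a at 0.069 (0.88, 0.0491) and Ldlrad4 at 0.085 (0.82, 0.0628). Ldlrad4 encodes a relative of the Pmepa1 protein that is also known as an inhibitor of TGF-β signalling. Nearest to Smad7 were Tram2 at 0.093 (0.79, 0.0338), Plxdc2 at 0.096 (0.95, 0.0798) and Cald1 at 0.0999 (0.65, 0.0858). These are orders of likeness over 6 arrays.

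All 6 epithelial markers were well above background on every array, with a mean log2 signal of 15.0 on each control array and 15.0 to 15.6 on the TGF-β1 arrays. Of 6 airway markers 5 were tested, Muc5ac stayed near background throughout, and Foxj1, of ciliated cells, rose by 1.47 (limma adjusted p = 0.00238); their mean log2 signal was 9.93 to 10.3 in controls and 10.2 to 10.7 after TGF-β1. The other airway markers did not share 1 direction. Scgb1a1, of club cells, was lower on every TGF-β1 array, at a mean difference of -2.27 on the log2 scale (limma adjusted p = 0.158). Its controls were far apart, at 10.8, 10.2 and 7.77, against 7.00, 7.57 and 7.42 after TGF-β1. Scgb3a2, also of club cells, had 1.05 (0.117), and Krt5 and Trp63, of basal cells, had 1.37 (0.179) and 0.18 (0.332). Of 7 fibroblast markers Col3a1, Pdgfrb and Lum were near background (not well above it on any of the 6 arrays). Col1a1 and Col1a2, collagen genes that TGF-β is known to induce, were called higher. For Col1a2, as for Col1a1, 0 control arrays and 3 TGF-β1 arrays stood well above background. The filter on dim probes thus set its direction too. By the bound used for Col1a1, Col1a2 was at least 2.38-fold higher after TGF-β1 (limma adjusted p = 0.0162). The mean log2 signal of the 4 fibroblast markers tested was 5.14 to 5.46 in controls and 6.43 to 7.22 after TGF-β1. The control means include these 2 dim collagen genes, which leaves the size of the rise in the mean uncertain. Of 4 endothelial markers Cdh5, Kdr and Tek were near background too, with Pecam1 at 6.03 to 6.21 and 6.12 to 6.32, and of 5 leukocyte markers Ptprc and Cd79a were, with a mean of 10.3 to 10.5 and 10.6 to 10.9 for the other 3. Limma called no epithelial, endothelial or leukocyte marker, and 2, 0 and 2 of them had an unadjusted p under 0.05. Markers of other cell types were thus present: Pdgfra, Dcn, Pecam1, Cd68, Cd3e and Itgam were well above background on all 6 arrays. Dcn, Cd68 and Itgam were higher on every TGF-β1 array, an order that held for 12.9% of all genes. Their log2 fold changes were 1.00 (limma adjusted p = 0.273), 0.90 (0.147) and 0.43 (0.134). In Dcn the order was barely met: its log2 signal was 8.98, 8.81 and 8.96 in controls and 11.1, 9.68 and 8.98 after TGF-β1. The part of any change in cell make-up in the values of the 10 genes was not tested.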

How the data were processed

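RNA of 6 cultures of 2D-MAOs, 3 TGF-β1-treated and 3 control, was measured on Agilent mouse 8x60K arrays with a single dye. Groups were taken from the sample titles. The authors deposited, per the file headers, the intensity of every spot on a linear scale as given by Agilent Feature Extraction 11.0.1.1 after background subtraction, without normalisation between arrays. Control spots and spots with outlier marks were left out. Probes were named through RefSeq accessions (32991 of 56599 probes, assembly GRCm38.p6). Log2 intensities were normalised by quantiles, as in the study's methods, probes were kept when 3 or more of the 6 arrays had them well above background, and a gene took its brightest probe. Groups were compared with limma 3.58.1 in R 4.3.3, unpaired, with Benjamini-Hochberg adjustment over 14345 genes. The script was tested on simulated data.

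The text names all 10 genes with every probe, up to 3 genes of each pathway list with the largest change in each direction and any called, the 3 nearest profiles of Pmepa1, Tgif1 and Smad7, and, of marker lists, counts and markers not above background. Values of airway, fibroblast and leukocyte markers are named beyond this rule, after they were seen. The genes, the lists and the rule were chosen with earlier results of these data known. Alternatives changed the normalisation (75th percentile), the background (normexp on median signals, offset 50), the filter on dim probes (none, or all 6 arrays), the value of a gene (mean of its probes) and the test: a variance trend with robust fitting, array weights, the unpaired t-test that the study's statistics name (here with adjustment, and, added later, without), an unadjusted or a 2-fold threshold, the replicate number or the slide row as a block, and each array left out. The planned comparison of protein sequences was not run. The study describes the cultures as biological replicates. Whether they came from separate animals or organoid lines is not given in the sources used here. The p-values set the difference between the groups against the spread between these cultures.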

Additional observations from a re-analysis of the deposited data

How the results depend on the processing

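The number of the 10 genes called higher was 2 over all 6 arrays, and under every alternative run none was called lower. It was 4 with normexp background, 1 without the filter on dim probes and 3 with that filter set to all 6 arrays (Skil added). With the mean of a gene's probes it was 1, with a trend and robust fitting 5, and with array weights 7. The t-test of the methods gave 0 once an adjustment was added here (6 at an unadjusted p under 0.05 from limma). It was 1 with the 2-fold threshold, 3 with the slide row as a block (Smad7 added), and 1 to 4 with each array left out. Of these, 4 were found without TGF-β1 replicate 3, and 1 without control replicates 1 or 2 or TGF-β1 replicates 1 or 2. Pmepa1 kept its call in 16 of 17 alternatives and lost it with the adjusted t-test (0.0894). Tgif1 kept its call in 8 of 17. It lost it without the filter (0.0686), with the mean of its probes (0.0609), with the t-test (0.144) and without any single array but TGF-β1 replicate 3.

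Over all genes, 234 were called higher, and the count was 59 without the filter, 399 with trend and robust fitting, 2408 with array weights, 7 with the t-test, 1641 at the unadjusted p and 49 to 1302 with each array left out. The 58 called lower became 15, 108, 2575, 2, 1543 and 7 to 900 under the same alternatives, 27 with the 2-fold threshold and 105 with the slide row as a block. The 5 pathway list genes called higher became 8 with normexp background, 2 without the filter, 8 with trend and robust fitting, 22 with array weights, 0 with the t-test, 18 at the unadjusted p and 2 to 16 with each array left out. None of them was called lower, against 1 with trend and robust fitting, 5 with array weights, 3 at the unadjusted p and 0 to 3 with each array left out. The highest counts among the fits with an array left out came without TGF-β1 replicate 3. Slide row 1 alone, an alternative chosen after seeing the data, gave 5 of the 10 genes called higher, 1986 genes higher and 1861 lower, and 20 pathway genes higher and 2 lower. The t-test of the methods without adjustment, also added then, gave 6 of the 10 genes higher, 1305 genes higher and 1147 lower, and 16 pathway genes higher and 4 lower.

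The sign turned in Smad6 without TGF-β1 replicate 2, in Tgif2 with the mean of its probes (-0.036), and in Smurf2 without control replicate 1 or TGF-β1 replicate 3 (-6.2e-04), none of which was called. With each array left out the log2 fold change was -0.334 to 0.0232 in Smad6 and -0.0328 to 0.136 in Smurf2. The cause of these differences was not tested.

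Over genes, the deviations from the group mean of samples with the same replicate number had r = -0.01, 0.33 and -0.05 for numbers 1, 2 and 3. Control and TGF-β1 samples of unlike number had r from -0.37 to 0.25. With 3 arrays per group these values cannot show whether samples of like number were paired. Replicate 3 of both groups also shared slide row 2. With the replicate number as a block, 1 of the 10 genes was called, as Tgif1 had an adjusted p of 0.0596 and Pmepa1 of 0.0376, and 86 genes were called higher and 18 lower over all genes.

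The arrays give brightness, and 3 per group limit the precision. Bambi, the dimmer probe of Smad7 and the dimmest probe of Tgif2 were closest to background.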
